A study of Mus musculus with 3 samples.

Results

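The genes followed here belong to the mouse *t* complex and were measured in embryos with and without the tw18 deletion. They are *Tagap*, *Fgd2*, *Nme3*, *Tiam2*, *Tcp1*, *Acat2*, *Sod2* and *Wtap*. They were taken by symbol, and 8 of 8 have a row among the 23421 genes of the expression table. RNA-seq was done on mouse embryos labelled as 129/SvEv strain at E6.5, 1 library each of wild type, tw18/+ and tw18/tw18. The paper describes mutant embryos stained by in situ hybridization at E6.5 as slightly younger than that. It also mentions that the genetic background of its embryos was not inbred. Stage and background may thus differ between the libraries, which was not tested. All embryos, the wild-type ones included, came from matings of tw18/+ animals. The wild-type embryos carry an undeleted Chr 17 from both parents, tw18/+ embryos carry 1 tw18 chromosome, and tw18/tw18 embryos carry the deletion on both. According to the paper, the tw18 chromosome arose when a *t* haplotype recombined with a wild-type one, so it can hold variant sequence outside the deletion too. Which of the 8 genes are variant on it is not given. Differences in mapping and in expression cannot be told apart for them. The labels name the tissue epiblast, whereas the methods of the study describe the embryo proper, which holds visceral endoderm as well, after the extra-embryonic part was removed for genotyping. How many embryos were pooled per library is not stated. With 1 library per genotype no difference has a replicate check, and no test is given.

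The *t* complex is the proximal stretch of mouse Chr 17 that *t* haplotypes carry in variant form. In males, *t* haplotypes are passed on to most offspring because distorter products act on small GTPase signalling in sperm and change the activity of the SMOK1 kinase, while the responder form of that kinase is kept by the sperm that carry it. Several distorters are known genes: *Fgd2*, which encodes an exchange factor that activates CDC42, *Tiam2*, an exchange factor for RAC, and *Nme3*, a nucleoside diphosphate kinase, which makes GTP from GDP. *Tagap* encodes a GTPase-activating protein. The gene described as a distorter under this name is the related *Tagap1*, so its values stand beside those of *Tagap*. The other 4 genes lie side by side and have housekeeping roles: *Tcp1* encodes the first described subunit of the cytosolic chaperonin CCT, *Acat2* a cytosolic acetoacetyl-CoA thiolase, *Wtap* a subunit of the enzyme that writes m6A on RNA, and *Sod2* the mitochondrial manganese superoxide dismutase.

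The unit is FPKM, fragments scaled to the length of the transcript and the mapped fragments of the library. Genes at an FPKM of 1 or more numbered 11859, 11879 and 12402 in wild type, tw18/+ and tw18/tw18. *Ppp2r1a*, which lies in the deletion, had an FPKM of 146, 81.7 and 12.8. The order is that of the labels, but the tw18/tw18 value, 8.72% of wild type from about 593 fragments, goes against a library made only of cells that lack the gene on both chromosomes. Where this RNA came from was not tested, and every value of the library labelled tw18/tw18 is to be read with it. The spacing of low values put the depth of the tw18/+ and tw18/tw18 libraries at 1.42 and 1.41 times that of wild type. All 10 epiblast markers were detected in the 3 libraries, with a summed FPKM of 2182, 2339 and 1138. Genes listed as markers of decidua and stroma were present as well, with a summed FPKM of 1764, 408 and 1354, of which the decidual prolactin *Prl8a2* gave 1504, 155 and 377. Among them are *Hand2* and *Bmp2*, which the paper treats as genes of the embryo, so the sum does not give the origin of the RNA. The most abundant gene *Lars2* had an FPKM of 11199 and 9689 in the first 2 libraries and was listed at 0 in tw18/tw18.

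A gene is counted here as higher or lower when the ratio of its FPKM values was at least 1 on the log2 scale and the higher value was at least 1. *Tiam2* stayed under an FPKM of 1 in every library, so 7 of the 8 genes entered these counts. In tw18/+ against wild type 0 of the 7 were higher and 0 lower, where 4.7% and 5.02% of all 12426 genes tested were. In tw18/tw18 against wild type 0 were higher and 1, *Fgd2*, was lower, where 15.1% of 12917 genes were higher and 6.94% lower. In tw18/tw18 against tw18/+ 1, *Tagap*, was higher and 0 lower, where 14.9% of 12846 genes were higher and 5.65% lower. Every library enters 2 of the 3 comparisons, so the counts are not separate observations. The median log2 ratio of the 8 genes, *Tiam2* included, was -0.066, -0.30 and -0.39 in the 3 comparisons. For the 7 tested it was -0.077, -0.66 and -0.58, beside 0.0021, -0.016 and 0.0033 over all genes tested. Rescaling the libraries to equal FPKM sums adds 0.21 to every log2 ratio of tw18/tw18 against wild type and 0.25 against tw18/+, and the share of higher genes among all those past the threshold then goes from 68.5% to 80.9% and from 72.5% to 85.3%.

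**Figure D1:**
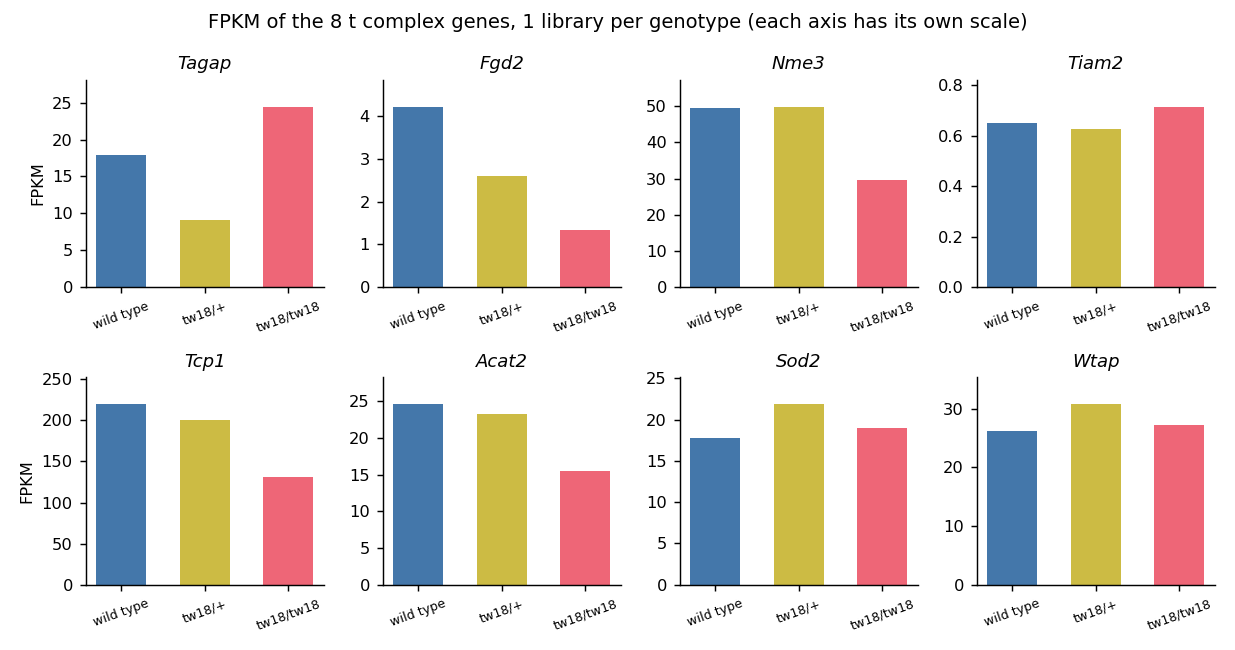
FPKM of each of the 8 genes (vertical axis, from 0, with its own scale in each panel) in the wild-type, tw18/+ and tw18/tw18 library (bars, 1 library each, no error bar). *Tcp1*, *Acat2*, *Nme3* and *Fgd2* are lowest in tw18/tw18, *Tagap* is lowest in tw18/+ at 9.09, and *Tiam2*, *Wtap* and *Sod2* differ least between the libraries.

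*Tagap* and *Fgd2* were the genes with the widest range between libraries. The FPKM of *Tagap* was 17.9 in wild type, 9.09 in tw18/+ and 24.5 in tw18/tw18, from about 766, 553 and 1473 fragments. The heterozygous library was the low one, at 50.7% of wild type, and the homozygous library the high one. The log2 ratio was -0.98 for tw18/+ against wild type (95% counting interval -1.14 to -0.82), just short of the threshold, and 0.45 (0.32 to 0.58) for tw18/tw18 against wild type. Between tw18/tw18 and tw18/+ it was 1.43 (1.29 to 1.57), a 2.69-fold difference. Such intervals, here and below, cover the sampling of fragments only and say nothing of the spread between embryos. For *Tagap*, *Nme3* and *Acat2*, which share much sequence with another gene, they also leave out the error of dividing reads between the genes.

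*Tagap1* lies on the other strand closer to the centromere, at 6955011 to 6961156 of Chr 17, and *Tagap* at 7926000 to 7934897. *Tagap1* had an FPKM of 18.7, 10.3 and 19.99, again lowest in tw18/+, with log2 ratios of -0.86 and 0.10 to wild type and 0.96 between tw18/tw18 and tw18/+. The transcripts of the pair are alike: 1441 of the 3027 words of 50 bp in *Tagap*, or 47.6%, also occur in *Tagap1*, and these are 63.7% of the words of *Tagap1*. A read from such a word cannot be assigned to either gene by its sequence, so the 2 values are not independent. With the 2 genes summed, the log2 ratio between tw18/tw18 and tw18/+ was 1.20. *Tagap* also lies within an annotated antisense gene, *E430024P14Rik*, and without strand the reads of the pair cannot be told apart. Whether counting used strand is not given in the sources used here.

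*Tagap* is known from activated T cells, so markers of immune and other cell types are given beside its level. The summed FPKM of 16 immune markers was 46.6, 32.9 and 77.9, of which *Lcp1* gave 17.4, 13.4 and 34.3. That of 10 endothelial markers was 62.1, 50.9 and 135, and that of 10 extra-embryonic ectoderm markers 176, 163 and 252. Each of these sums was lowest in tw18/+ and highest in tw18/tw18. The sums of the epiblast, visceral endoderm, decidual and stromal, and erythroid markers did not have this order. The single markers did not all follow these sums: in tw18/+ against wild type, where *Tagap* was lower, 1 of 9 tested immune markers was higher and 3 lower, 2 of 9 endothelial markers were higher and 2 lower, and 1 of 14 decidual and stromal markers was higher and 1 lower. Of the 16 immune markers 5, 3 and 5 were listed at 0, *Aif1* in all 3 libraries, and the T cell receptor component *Cd3e* in wild type and tw18/tw18. Against tw18/+, tw18/tw18 had 6 of 8 tested immune markers higher and 1 lower, 9 of 10 endothelial markers higher and 14 of 14 decidual and stromal markers higher. Against wild type the counts were 2 higher and 2 lower of 9, 7 higher of 10, and 12 higher and 1 lower of 14. Over all genes tested 4.7% were higher and 5.02% lower in tw18/+ against wild type. In tw18/tw18 the shares were 14.9% and 5.65% against tw18/+ and 15.1% and 6.94% against wild type. Of extra-embryonic ectoderm markers 7 of 9 were higher and 1 lower in tw18/tw18 against wild type, and of erythroid markers 3 of 4 were higher and 1 lower. The 1 lower was the alpha-globin gene *Hba-a1*, with an FPKM of 52.2, 27.1 and 0.007. The other alpha-globin gene *Hba-a2* had 0.020, 26.9 and 127. How reads were divided between these 2 genes was not examined, so their opposite ratios are not read as separate markers. The part of these cell types in the level of *Tagap* was not tested, and in bulk RNA fewer cells of a type and less RNA per cell cannot be told apart.

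The start regions of the 2 genes are shown because their levels had the same order over the libraries. They are the 250 bases before the RefSeq transcript start (GRCm38.p6), 5′ to 3′ on the gene's strand, at chr17:7925750-7925999 on the plus strand for *Tagap* and chr17:6961157-6961406 on the minus strand for *Tagap1*. Capitals mark matches on either strand to CCAAT (the box bound by NF-Y), CCGGAA (the ETS core) or GGGCGG (the GC box), and GAANNTTC, part of the heat shock element, was searched as well.
Tagap: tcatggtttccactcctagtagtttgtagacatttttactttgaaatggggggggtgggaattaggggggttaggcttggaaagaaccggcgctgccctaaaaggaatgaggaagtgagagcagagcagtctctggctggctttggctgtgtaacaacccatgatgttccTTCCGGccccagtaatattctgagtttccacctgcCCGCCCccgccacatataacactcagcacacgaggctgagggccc
Tagap1: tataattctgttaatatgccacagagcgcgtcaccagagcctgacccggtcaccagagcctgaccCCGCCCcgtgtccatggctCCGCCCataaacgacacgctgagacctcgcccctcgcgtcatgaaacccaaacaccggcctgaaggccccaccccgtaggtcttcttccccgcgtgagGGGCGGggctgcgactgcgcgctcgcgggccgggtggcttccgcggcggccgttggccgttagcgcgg
*Tagap* has a match to CCGGAA and 1 to GGGCGG, *Tagap1* has 3 to GGGCGG. Of all 32851 promoter windows of this length 33.8% hold CCAAT, 12.03% CCGGAA, 32.7% GGGCGG and 6.69% GAANNTTC, so none of these is rare. No word of 12 bases is shared between the 2 windows: 0 of 239. Their transcripts are alike where their start regions, by this measure, are not.

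*Fgd2* (Chr 17, 29360914 to 29379661, plus strand) was measured at FPKM 4.22 in wild type, 2.59 in tw18/+ and 1.33 in tw18/tw18. These are about 154, 134 and 68 fragments, a low depth. Wild type was highest and tw18/tw18 lowest, and the gene lies 8.42 Mb from *Ppp2r1a*, outside the deletion. The log2 ratio to wild type was -0.70 (-1.05 to -0.37) in tw18/+ and -1.66 (-2.11 to -1.25) in tw18/tw18, which leaves 31.5% of the wild-type level, and -0.96 (-1.41 to -0.53) between the mutants. The transcripts of *Fgd2* share 0 words of 50 bp with another gene. Its neighbours *Mtch1*, with log2 ratios to wild type of 0.04 and -0.20, and *Pim1*, with -0.16 and 0.37, stayed within the threshold.

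The start region of *Fgd2*, the gene of the 8 past the threshold against wild type, is at chr17:29360664-29360913 on the plus strand and is shown with the same motifs in capitals.
Fgd2: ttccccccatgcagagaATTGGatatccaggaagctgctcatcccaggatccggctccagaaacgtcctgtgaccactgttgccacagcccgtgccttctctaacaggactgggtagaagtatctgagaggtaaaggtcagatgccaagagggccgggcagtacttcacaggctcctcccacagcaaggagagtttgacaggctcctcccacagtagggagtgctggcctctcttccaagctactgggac
It has 1 match, to CCAAT on the other strand, 233 bases before the start, and none to the other 3 motifs.

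*Nme3* (24896500 to 24897522, plus strand) stood at FPKM 49.4 in wild type, 49.9 in tw18/+ and 29.7 in tw18/tw18. Wild type and tw18/+ were level, with a log2 ratio of 0.01 (-0.17 to 0.20), and tw18/tw18 was lower, at -0.74 (-0.95 to -0.52) against wild type. The gene overlaps *Mrps34*, a mitochondrial ribosomal protein gene on the same strand, by 1003 bases, and 600 of its 666 words, 90.1%, also occur there. *Mrps34* had an FPKM of 39.2, 45.7 and 26.6, the same order, and both values depend on how the reads were divided between the pair. *Mapk8ip3*, which overlaps *Nme3* on the opposite strand, had 5.05, 4.85 and 8.28 and was highest in tw18/tw18.

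Other NME genes were measured alongside. Of the 6, 0 were higher and 2 lower in tw18/tw18 against wild type, where 6.94% of all genes were lower. The 2 were *Nme7*, with a log2 ratio of -1.27, and *Nme5*, listed at 0 in both mutants with an FPKM of 1.05 in wild type. The median of the 5 with a ratio was -0.38, and -0.17 with equal FPKM sums, where 2 of the 5 were above 0. *Nme4*, a mitochondrial member of the family, had an FPKM of 49.8, 63.6 and 29.7, close to *Nme3* in wild type and tw18/tw18.

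*Tiam2* (3326573 to 3531344, plus strand) was the gene with the lowest level, an FPKM of 0.650, 0.626 and 0.715. About 55, 75 and 85 fragments stand behind these values, and each of the 3 counting intervals includes 0, as -0.37 to 0.65 for tw18/tw18 against wild type. A difference within those bounds was not detectable at this depth. *Tfb1m*, a mitochondrial transcription factor gene that overlaps *Tiam2* by 12089 bases on the opposite strand, had an FPKM of 7.60, 12.8 and 5.36, an order not seen in *Tiam2*. *Tiam1*, the close relative of *Tiam2*, had an FPKM of 7.31, 9.18 and 7.02.

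No value of *Smok1*, the gene of the kinase named above, is given here. Of the other SMOK kinases, *Smok2a*, *Smok2b*, *Smok3a* and *Smok3b* were listed at 0 in all 3 libraries. *Smok4a* differed from them, with low values of 0.246 in tw18/+ and 0.180 in tw18/tw18, while the wild-type library had 0. The number of fragments behind *Smok4a* was not estimated. For a transcript of 1 kb the value of 3 fragments, the upper limit that a count of 0 allows, is an FPKM of 0.205, 0.144 and 0.146. Of 16 further genes of the *t* complex tied to male transmission or named after it, *Tagap1* and these kinases among them, 6 were tested in tw18/tw18 against wild type, with 0 higher and 1 lower, *Tcte2*, whose FPKM of 1.03, 0.737 and 0.185 was low throughout. The shares over all genes were 15.1% higher and 6.94% lower. *Dynlt1b*, a dynein light chain gene, had an FPKM of 86.3, 87.0 and 85.3, and its relative *Dynlt1a* had 13.0, 12.4 and 13.2. The other copies were not level: *Dynlt1c* had 56.6, 91.0 and 99.7, and *Dynlt1f* had 8.21, 4.26 and 8.62. Words shared between these *Dynlt1* copies were not counted, and how reads were divided between them is not known. The median log2 ratio of the 6 was 0.04, and with equal FPKM sums it was 0.25, with 1 higher and 1 lower.

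**Figure D2:**
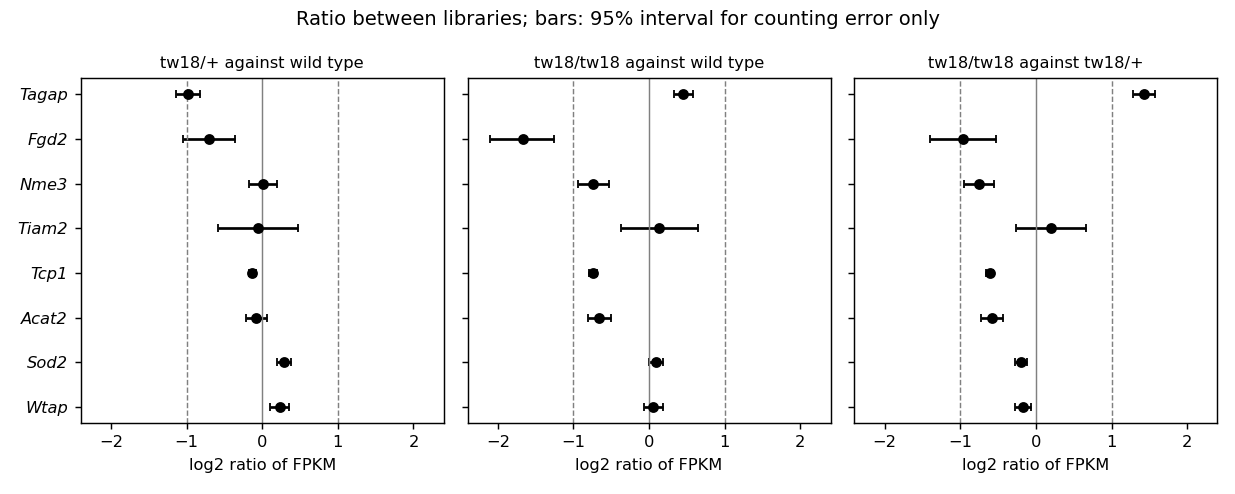
Log2 ratio of FPKM (horizontal axis) for each of the 8 genes in the 3 comparisons between libraries (panels), with bars for the 95% counting interval and dashed lines at the threshold of 1 in either direction. *Fgd2* is past the line in tw18/tw18 against wild type at -1.66 and *Tagap* in tw18/tw18 against tw18/+ at 1.43, while *Tagap* stops just short of it in tw18/+ against wild type at -0.98.

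*Tcp1*, *Acat2*, *Wtap* and *Sod2* start within 0.1 Mb of each other, at about 8 Mb from *Ppp2r1a* on the centromeric side. *Tcp1* (12915701 to 12925067, plus strand) was by far the most abundant of the 8, at FPKM 219 in wild type, 200 in tw18/+ and 131 in tw18/tw18. Wild type was the high library and tw18/tw18 the low one. The log2 ratio to wild type was -0.13 (-0.18 to -0.08) in tw18/+ and -0.74 (-0.80 to -0.69) in tw18/tw18, and -0.61 (-0.66 to -0.56) between the mutants. Of its 2499 words 525, or 21.0%, occur on the opposite strand in *Acat3*, which overlaps it by 1255 bases, and *Mrpl18* overlaps it by 645 bases, also on the opposite strand.

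CCT folds newly made actin and tubulin and is built from 8 kinds of subunit, of which TCP1 is 1. The other subunits went the same way: of 7 tested, 0 passed the threshold in tw18/tw18 against wild type, but the log2 ratios of all 7 lay between -0.66 for *Cct8* and -0.31 for *Cct3*, with a median of -0.46. With equal FPKM sums the median was -0.25 and all 7 were still below 0. In tw18/+ against wild type their median was 0.08. Among the genes of the 8 subunits *Tcp1* had rank 6 by FPKM in wild type and rank 8 in both mutants, and its share of their summed FPKM was 9.89%, 8.74% and 8.40%. The testis form *Cct6b* stood at 0.613, 0.117 and 0.324.

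Prefoldin, which hands actin and tubulin to CCT, these substrates and the phosducin-like gene *Pdcl3* were counted together. Of 10 genes tested in tw18/tw18 against wild type 0 were higher and 1 lower, *Pfdn4* with a log2 ratio of -1.04. Over all genes the shares were 15.1% and 6.94%. The median of the 10 was -0.48, and -0.26 with equal FPKM sums, where 0 were lower and 4 of the 10 were above 0. *Tubb5* had an FPKM of 837, 840 and 492, whereas *Actb* had 1544, 1536 and 1758. The epiblast markers were, as *Tcp1* was, lowest in tw18/tw18: in tw18/tw18 against wild type 5 of 10 were lower and 0 higher, with a median of -0.93, and 3 of 10 were lower with equal FPKM sums. Whether the makeup of the tissue or the stage of the embryos has a part in the level of *Tcp1* was not tested.

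By its RefSeq transcript, *Tcp1* starts 238 bases from *Mrpl18*, a gene for a mitochondrial ribosomal protein that runs the other way, and the start region they share is shown for that reason. The GENCODE extent of *Tcp1* given above begins earlier, so this window lies inside it and the annotations differ on where the gene starts. It lies at chr17:12916079-12916328 on the plus strand, with the motifs in capitals as above.
Tcp1: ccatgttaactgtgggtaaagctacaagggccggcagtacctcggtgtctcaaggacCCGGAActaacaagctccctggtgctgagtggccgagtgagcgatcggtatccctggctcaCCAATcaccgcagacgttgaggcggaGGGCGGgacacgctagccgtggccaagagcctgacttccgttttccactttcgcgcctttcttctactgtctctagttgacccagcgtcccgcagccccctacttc
It has 1 match to CCGGAA at 193 bases before the start, 1 to CCAAT at 132 and 1 to GGGCGG at 106, and none to GAANNTTC. The 250 bases before the start of *Mrpl18* hold 226 of the 239 words of 12 bases in this window. *Mrpl18* had an FPKM of 117, 93.1 and 51.2, or -1.20 on the log2 scale in tw18/tw18 against wild type, so both genes were lowest in tw18/tw18 and *Mrpl18* was past the threshold.

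*Acat2* (12942890 to 12960747, minus strand) was at FPKM 24.6 in wild type, 23.3 in tw18/+ and 15.6 in tw18/tw18. The first 2 libraries were close, with a log2 ratio of -0.08 (-0.22 to 0.06), and tw18/tw18 was lower at -0.66 (-0.81 to -0.51). Its near copy *Acat3* is next to it, holds 45.9% of its words and had an FPKM of 30.7, 28.3 and 17.8, with a log2 ratio of -0.79 in tw18/tw18. With the 2 summed, the log2 ratio was -0.73. *Acat1*, the mitochondrial enzyme of this name, lies elsewhere and went the other way, with an FPKM of 7.04, 7.44 and 18.4.

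Among 14 thiolases and genes of acetyl-CoA, ketone body and sterol synthesis, 3 were higher and 0 lower in tw18/tw18 against wild type, among them *Acaa1b* with a log2 ratio of 1.57 and *Acat1* with 1.39. Over all genes 15.1% were higher and 6.94% lower. The median of the 14 was 0.36, and 0.58 with equal FPKM sums, where 4 were higher and 0 lower. *Hmgcs1*, the cytosolic enzyme that acts after ACAT2 on the way to sterols, had FPKM values of 50.05, 45.6 and 28.4, or -0.82 on the log2 scale in tw18/tw18 against wild type. The cytosolic *Acat2* and *Hmgcs1* were thus lowest in tw18/tw18 and the mitochondrial *Acat1* highest. This holds for these genes only, and a difference between the compartments was not tested. Visceral endoderm markers had 2 of 13 higher and 0 lower in tw18/tw18, with a median of 0.46 and a summed FPKM of 949, 950 and 1318, and their part in these values was not tested.

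*Wtap* (12966796 to 12994169, minus strand) was 6049 bases from *Acat2* and did not share its order. It had an FPKM of 26.2, 30.7 and 27.3, highest in tw18/+, with log2 ratios of 0.23 (0.11 to 0.35) and 0.06 (-0.07 to 0.18) to wild type. Of 8 other genes of the m6A writer 0 passed the threshold in tw18/tw18 against wild type, and all 8 had ratios below 0, with a median of -0.23. With equal FPKM sums 4 of these 8 were above 0. The catalytic subunit *Mettl3* had an FPKM of 18.2, 22.7 and 15.1, and 0 of 11 readers and erasers of the mark passed the threshold, with a median of -0.11 that becomes 0.10 with equal FPKM sums, where 7 of the 11 were above 0.

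*Sod2* (13006846 to 13040063, plus strand) had an FPKM of 17.8, 21.8 and 18.998, again with tw18/+ highest. The log2 ratio to wild type was 0.29 (0.20 to 0.39) in tw18/+ and 0.09 (-0.0015 to 0.19) in tw18/tw18, and -0.20 (-0.28 to -0.12) between the mutants. The last ratio is above 0 when the FPKM sums are made equal. About 1486, 2591 and 2232 fragments stand behind the level, and 1.43% of its words occur in another gene.

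Of 19 other antioxidant genes 1 was higher, *Gpx7* with a log2 ratio of 1.84 in tw18/tw18 against wild type, and 0 lower, where 15.1% and 6.94% of all genes were. The median was -0.16, and it becomes 0.06 with equal FPKM sums. The cytosolic dismutase *Sod1* had an FPKM of 297, 328 and 222. *Sod2* is also a known target of NF-kB, and of 9 other NF-kB responsive genes tested 5 were higher and 0 lower, with a median of 1.06, where 15.1% of all genes were higher. In the same comparison 12 of 14 decidual and stromal, 7 of 10 endothelial and 7 of 9 extra-embryonic ectoderm markers were higher, and their part in this count was not tested. The largest ratio among the NF-kB responsive genes was that of *Tnfaip3*, an inhibitor of the pathway, at 3.15, while *Sod2* itself stood at 0.09. The wild-type FPKM of *Tnfaip3* was 0.198, from about 12 fragments, and its ratio in tw18/+ was already 2.64.

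**Figure D3:**
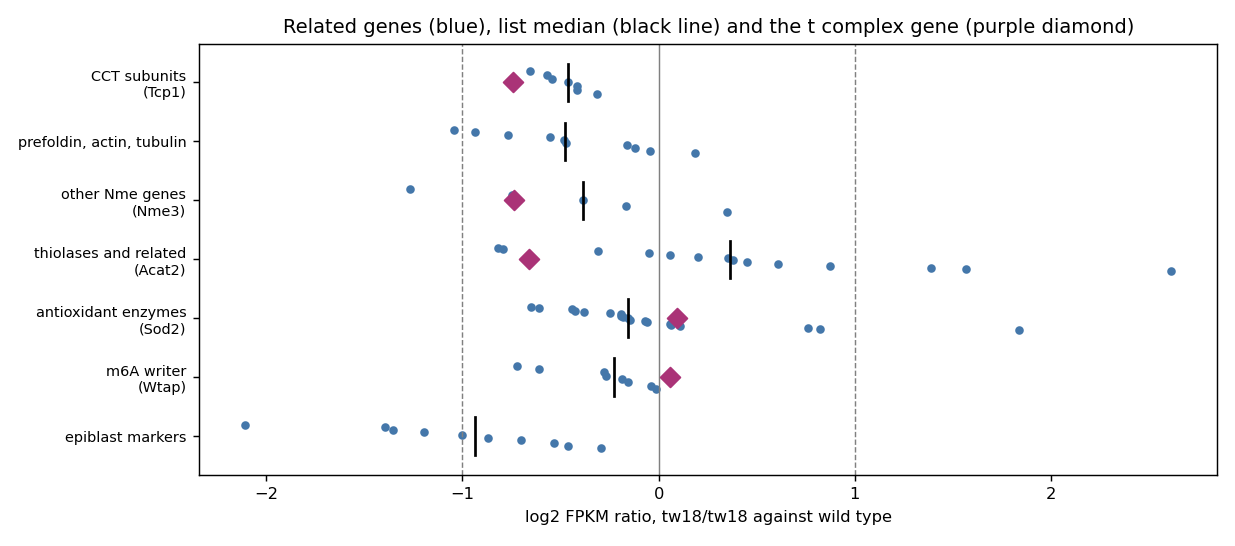
Log2 ratio of FPKM, tw18/tw18 against wild type (horizontal axis), for the tested genes of 7 lists (blue points), the median of each list (black line) and the *t* complex gene that belongs to it (purple diamond), with dashed lines at the threshold of 1. *Tcp1* lies at -0.74 below the other CCT subunits and *Wtap* at 0.06 above the other m6A writer genes.

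The 8 genes lie on both sides of the deletion. Of the genes between 20 and 23 Mb of Chr 17, inside it, 19 of 20 tested were lower in tw18/tw18 against wild type, with a median log2 ratio of -3.50, and 7 of 20 in tw18/+, with a median of -0.85. In tw18/tw18 against wild type, the first 19 Mb, which hold 6 of the 8, had 14 of 67 higher and 10 lower, with a median of 0.06. These are 20.9% and 14.9%, beside 15.1% and 6.94% of all genes tested. Between 24 and 40 Mb, which hold *Nme3* and *Fgd2*, 44 of 286 were higher and 29 lower, or 15.4% and 10.1%, with a median of -0.11. In tw18/tw18 against wild type the 8 genes stayed above the median ratio of the deleted genes, while in tw18/+ *Tagap*, at -0.98, was below theirs.

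Within the stretch from *Pnldc1* to *Sod2* the ratios of tw18/tw18 to wild type were, from the centromere on, -1.94 for *Pnldc1*, -1.20 for *Mrpl18*, -0.74 for *Tcp1*, -0.79 for *Acat3*, -0.66 for *Acat2*, 0.06 for *Wtap* and 0.09 for *Sod2*. *Pnldc1* was low, with an FPKM of 3.90, 1.996 and 1.02. *Wtap* and *Sod2*, the last of the row, were the ones above 0, but the counting intervals of both include 0. Beside *Tagap*, *Rsph3a* had an FPKM of 2.96, 8.60 and 18.1, lowest in wild type, so *Tagap* did not share the order of that neighbour.

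**Figure D4:**
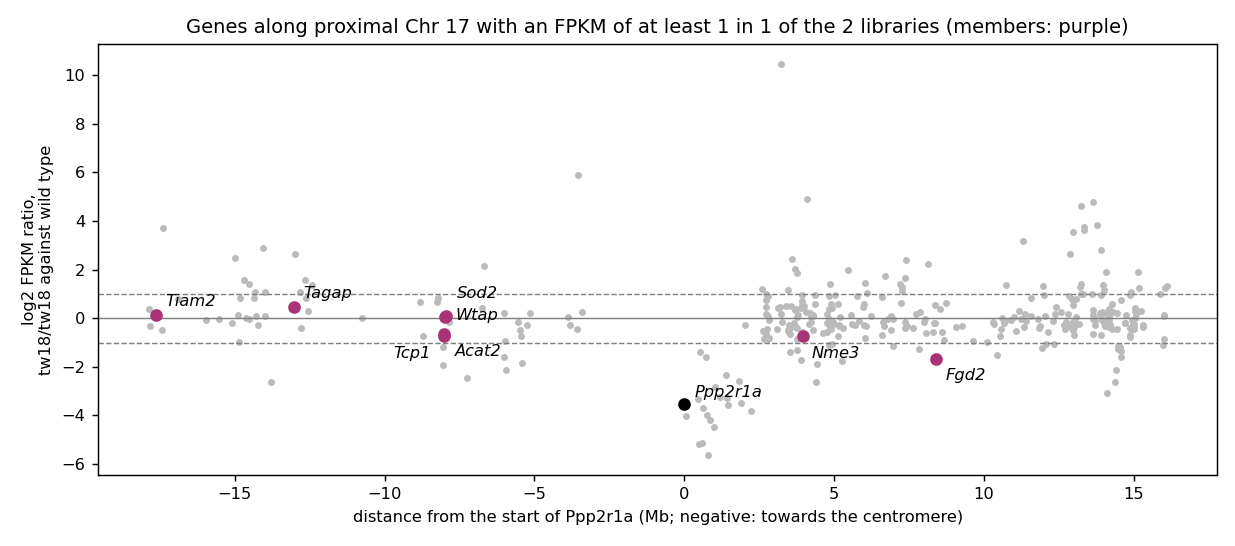
Log2 ratio of FPKM, tw18/tw18 against wild type (vertical axis), against the distance in Mb from the start of *Ppp2r1a* (horizontal axis, negative towards the centromere) for genes of proximal Chr 17 tested (grey), the 8 genes (purple) and *Ppp2r1a* (black), with dashed lines at the threshold of 1. The low points around *Ppp2r1a* are the deleted genes, and the 8 genes lie outside them, between -1.66 for *Fgd2* and 0.45 for *Tagap*.

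In wild type the 8 genes ranked *Tcp1*, *Nme3*, *Wtap*, *Acat2*, *Tagap*, *Sod2*, *Fgd2* and *Tiam2* by FPKM, which is per length. *Tagap* and *Sod2*, at 17.9 and 17.8, were next to each other and close. In tw18/+ *Sod2* stood above *Tagap*, and in tw18/tw18 *Tagap*, at 24.5, stood above *Sod2* and *Acat2*. *Tcp1* and *Nme3* kept the first ranks and *Fgd2* and *Tiam2* the last in all 3 libraries.

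The patterns of *Nme3*, *Tcp1*, *Acat2*, *Sod2* and *Wtap*, the members that reached FPKM 10 in all 3 libraries, were set beside those of the 5399 genes that did, by the distance between their log2 ratios to wild type. The nearest were *Guk1* and *Polr2c* to *Nme3*, *Med29* and *Asun* to *Tcp1*, *Ppat* and *Rbm27* to *Acat2*, *Psmd4* and *Arid4b* to *Sod2* and *Ppp2r5e* and *Zfp64* to *Wtap*. Within 0.1 on both ratios were 110, 101, 165, 137 and 202 genes, so many genes share each of these patterns over 3 libraries.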

How the data were processed

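Total RNA libraries of E6.5 embryos (TotalScript kit, random hexamers) were sequenced as 50 bp paired-end reads. Per the labels, TopHat2, Bowtie 1.0.0 and Cuffdiff of Cufflinks 2.2.1 were used with mm10, and the authors deposited the result as FPKM for 23421 gene symbols. The annotation, the library normalization and whether strand was used in counting are not given in the sources used here. Ratios were computed without a pseudocount in Python (version 3.11.15; pandas 2.3.3, scipy 1.17.1, numpy 2.4.6) and drawn in matplotlib 3.10.9. The genes and the lists were chosen with earlier results of these data known. Named genes are the 8, *Ppp2r1a*, their paralogs and neighbours, up to 3 list genes past the threshold with the largest ratio, and the 2 nearest patterns, and further genes were named after their values were seen. Fragment numbers are estimates from the step of low FPKM values (108, 226 and 163 of them, of which 84.3%, 77.0% and 80.4% lay within 0.2 of a whole number) and the length of the transcript less 150 bp. Since PCR copies are not separate molecules, intervals cover counting error only. Positions are GENCODE M21 for GRCm38, found for 21847 genes, and promoters are from RefSeq. The counting was tested on simulated data. The alternatives were pseudocounts of 0.1 and 1, no filter or one at 2, a threshold of 2, centring on the median and equal FPKM sums, and, chosen after seeing the data, equal sums without *Lars2* and members summed with their near copies. A result of the thiolase list is not reported here.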

Additional observations from a re-analysis of the deposited data

How the results depend on the processing

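The members past the threshold were the same under pseudocounts of 0.1 and 1, no filter, a filter at 2 and centring on the median. With a log2 threshold of 2 there were 0 in tw18/tw18 against wild type and 0 against tw18/+, and with equal FPKM sums, also without *Lars2*, there was 1 in tw18/+ against wild type, *Tagap*, at -1.02. The ratio of *Fgd2* in tw18/tw18 against wild type ran from -1.62 to -1.16 over the alternatives, that of *Tagap* against tw18/+ from 1.20 to 1.68 and that of *Tcp1* against wild type from -0.74 to -0.53. Equal FPKM sums, also without *Lars2*, turned the sign of *Nme3* in tw18/+ against wild type and of *Sod2* and *Wtap* in tw18/tw18 against tw18/+. Over all genes, 1208, 2842 and 2636 passed the threshold in tw18/+ against wild type, tw18/tw18 against wild type and tw18/tw18 against tw18/+. The counts were 551, 1759 and 1554 with a pseudocount of 1, 4292, 5897 and 5770 without a filter, and 423, 1039 and 805 with a threshold of 2. With a filter at 2 the first was 634. No paired analysis was possible because there is 1 library per genotype. The depth limits *Tiam2* and *Fgd2*, with at most 85 and 154 fragments.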
